A study of Mus musculus with 4 samples.

Results

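The comparison described here set a pre-B cell library from STAP-2 transgenic (Tg) mouse marrow against one from wild-type (WT) marrow, both from C57BL/6J mice at steady state. For each gene the wild-type value was subtracted from the transgenic value after conversion to log2(FPKM + 1), where FPKM is the deposited unit, fragments per kilobase of transcript scaled to the depth of the library. Of 23284 listed genes, 10659 reached 1 FPKM in either library and had a transcript of 300 nt or more. A further 2 libraries, wild type and labelled STAP-2 knockout (KO), both came from C57BL/6J marrow 1 month after transplantation. They served only to describe which library of the steady-state pair lay apart from the rest. There was 1 library in each of the 4 groups, so no difference has a replicate check and no test was made. The promoter of the transgene, its place in the genome, the number of mice behind a library and the gates of the cell sort are not stated in the sources used here. The titles of the steady-state pair carry one number code and those of the transplant pair another, with no word on what the codes mark.

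STAP-2 is an adaptor protein. It has a pleckstrin homology domain that binds membrane lipids and an SH2-like domain, and it is known for tuning signals of cytokine, Toll-like and antigen receptors. Pre-B cells are marrow B progenitors that have rearranged their heavy chain. The large, cycling ones show that chain on the surface with the surrogate light chain made of VpreB and lambda 5, and the small, resting ones rearrange a light chain under RAG1 and RAG2.

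Stap2 itself was near the limit of detection. The wild-type library held about 2 reads of it (0.212 FPKM) and the transgenic one about 5 (0.536 FPKM). The ratio was 2.52 with a 95% interval of 0.412 to 26.4. It was listed at 0 in transplanted wild type and at 0.179 FPKM, about 2 reads, in the labelled knockout. This level checked neither label, and whether the transgene's transcript was one that the counting could see is not stated in those sources. Stap1, a related adaptor of B cells, stood at 34.1 FPKM in the wild type against 38.4 in the transgenic library, and at 48.3 and 36.8 in the transplanted wild type and the labelled knockout.

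Depth was similar across libraries. Steps between low values gave about 7300000 reads in wild type, 7260000 in the transgenic library, and 7740000 and 8680000 in the transplanted wild type and the labelled knockout. At 1 FPKM a transcript of 1500 nt had 9.42 reads in the wild type and 9.37 in the transgenic library. The 95% intervals beside the ratios come from such estimated reads by the Clopper-Pearson method and cover counting error only. Genes of the B lineage were present in both. Cd79a, a signalling chain of the pre-B cell receptor, stood at 1833 FPKM in the wild type against 1725 in the transgenic library. Il2ra, a surface marker of small pre-B cells, stood at 83.2 and 68.1 FPKM. Neither gene measures how pure a library was, and markers of other cell types are given below.

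The 2 libraries were much alike. The median difference over all 10659 genes was -0.02, with 4971 genes higher and 5688 lower in the transgenic library, and 5% of genes lay below -0.41 and 5% above 0.49. A difference of at least 2-fold on the log2(FPKM + 1) scale was found for 108 genes higher in the transgenic library (1.01% of those measured) and 52 lower (0.488%), or 1.5% in either direction. When both libraries were rescaled to the same sum the median moved to -0.13, with 92 genes higher and 69 lower. Differences below about 0.1 are therefore not read as a direction here. Among genes with a mean under 2 FPKM 6.17% passed 2-fold, and among those from 20 to 100 FPKM 0.519%. Of the 108 higher genes 15 had fewer than 10 reads in both libraries, and of the 52 lower 13. At the edge of the selection Celsr1, at 0.604 FPKM in the wild type against 1.00 in the transgenic library, was just inside, and Nyx, at 0.999 and 0.685, just outside.

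**Figure D1:**
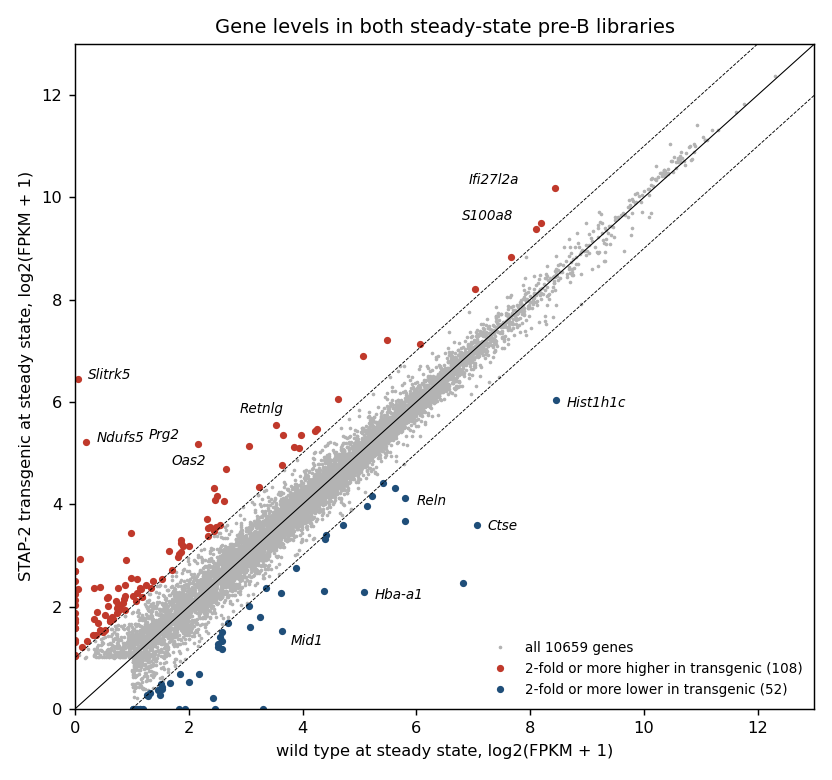
Each point is 1 of 10659 genes, with its log2(FPKM + 1) in the wild-type library on the x axis and in the transgenic library on the y axis. The solid line marks equal levels and the dashed lines 2-fold. The 108 red and 52 blue points lie past them, with Slitrk5 farthest above and Ctse and Hist1h1c among those farthest below.

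Both transplant libraries were used to describe which side of the pair lay apart. Both differ from the pair in transplantation and in title code. A level that they share therefore cannot be told apart from an effect of either. The wild type lay at least 2-fold away from all 3 other libraries for 43 genes (0.403%), below them for 28 and above for 15. The transgenic library did so for 31 genes (0.291%), above the rest for 25 and below for 6. Of the 108 genes higher in the transgenic library, both transplant libraries lay nearer to it for 40 and nearer to wild type for 34. For 24 the transplanted wild type sided with the transgenic library and the labelled knockout with wild type, and for 10 the reverse. Of the 52 lower genes the same 4 counts were 19, 16, 3 and 14. Over all 10659 genes both transplant libraries were nearer to the transgenic one for 35.6% and nearer to wild type for 24.3%. The transplanted wild type sided with the transgenic library and the labelled knockout with wild type for 15.5%, and the reverse held for 24.7%. These 4 shares stand beside the counts given below for each list. By these counts either library of the pair could be the one that stood apart.

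Genes in which the transgenic library stood alone came first from a stretch of chromosome 14. Slitrk5, the gene of a neuronal transmembrane protein with leucine-rich repeats (111675097 to 111683141, plus strand, GRCm38), had 1 read in the wild-type library (0.0297 FPKM) and 2899 in the transgenic one (86.4 FPKM). Neither transplant library had any. Its ratio was 2914, with an interval of 523 to 115174.

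Slitrk6, a paralog 927 kb before it on the minus strand (110748580 to 110755149), was listed at 0 in wild type and stood at 3.07 FPKM, or 90 reads, in the transgenic library. The transplant libraries had 1 read each. Against a floor of 3 reads in wild type it was at least 30.1-fold higher.

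Mir17hg, the host transcript of the miR-17-92 microRNA cluster, lay 3368 kb after Slitrk5 (115042879 to 115046727, plus strand). It stood at 11.6 FPKM in wild type (283 reads), 39.8 in the transgenic library (961 reads), and 11.4 and 12.3 in the transplanted wild type and labelled knockout. The 3 other libraries thus shared 1 level, and the transgenic one was 3.42-fold above wild type (2.99 to 3.91). Gpc5, a glypican gene that starts 3417 kb after Slitrk5, was listed at 0 in the 3 other libraries and at 0.308 FPKM, about 3 reads, in the transgenic one.

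From Slitrk6 to Gpc5, 6 genes other than microRNAs were listed over 5.78 Mb. The 4 of them that were above 0 in any library were all highest in the transgenic one. The nearest measured genes on either side did not share this. Spry2, which damps signals of growth factor receptors, 4.85 Mb before Slitrk6, stood at 20.2 FPKM in the wild type against 9.51 in the transgenic library, with 19.6 and 13.7 after transplantation, and was 2.12-fold lower (1.71 to 2.63). Ndfip2, before it, was level at 11.6 and 11.8 FPKM. Gpc6, between Gpc5 and Tgds, was also listed highest in the transgenic library but had at most 2 reads in any, so the end of the stretch at Gpc5 is a choice. Tgds, 1.59 Mb after Gpc5, stood at 10.7 and 9.43 FPKM (ratio 0.883, 0.669 to 1.16) and Gpr180 at 5.01 and 5.20. Slitrk6, Gpc5 and the extent of the stretch were picked after their values were seen.

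**Figure D2:**
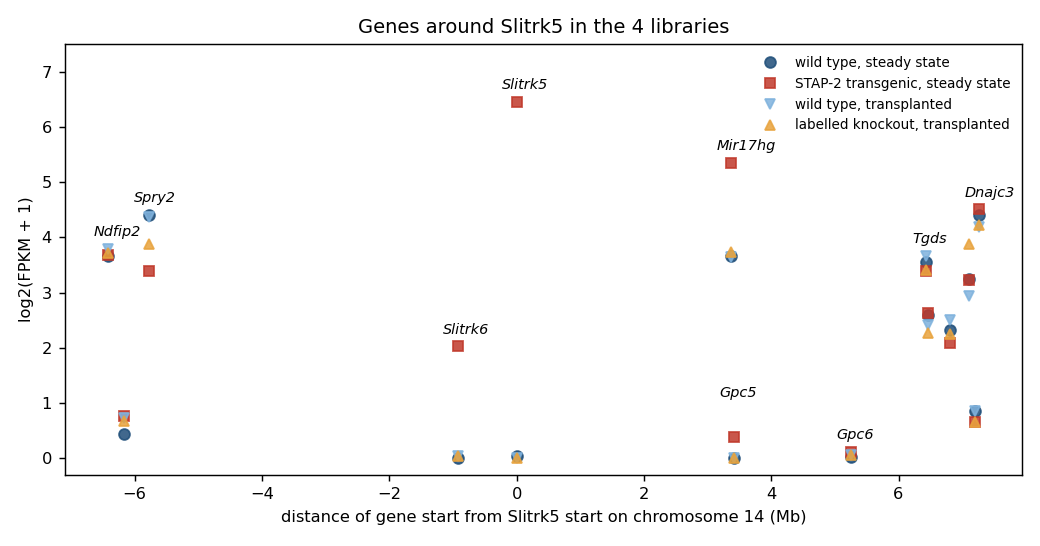
Levels of genes on chromosome 14 as log2(FPKM + 1) in the 4 libraries, against the distance of each gene's start from that of Slitrk5 in Mb. Slitrk6, Slitrk5, Mir17hg and Gpc5 have the transgenic library (red squares) above the 3 others, and the flanking Ndfip2 and Tgds do not.

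The Mir17hg transcript holds 6 hairpins with 11 mature microRNAs. The cluster is best known in the B lineage for restraining the death gene Bcl2l11 as pro-B cells become pre-B cells. Its main arms are shown because the seed, bases 2 to 8 in capitals, sets which messages each can bind. Sequences are from RefSeq on GRCm38.p6, 5′ to 3′.
miR-17-5p: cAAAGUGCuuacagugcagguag
miR-20a-5p: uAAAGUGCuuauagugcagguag
miR-18a-5p: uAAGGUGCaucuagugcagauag
miR-19a-3p: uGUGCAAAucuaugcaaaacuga
miR-19b-3p: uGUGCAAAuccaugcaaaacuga
miR-92a-3p: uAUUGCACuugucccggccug
miR-17-5p and miR-20a-5p share a seed, as do miR-19a-3p and miR-19b-3p. All of these microRNA genes were listed at 0 in every library, and the messenger RNA kit used is not made to capture them, so only the host transcript was measured.

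A few textbook targets of the cluster, chosen after the host transcript's value was seen, were looked up. Bcl2l11 stood at 14.1 FPKM in the wild type against 13.3 in the transgenic library (ratio 0.947, 0.833 to 1.08), with 12.7 and 13.3 after transplantation. Cdkn1a, a cell cycle inhibitor, was higher in the transgenic library at 6.17 and 9.53 FPKM, and at 6.66 and 10.4 after transplantation. E2f1 stood at 12.8, 17.5, 12.6 and 23.1 FPKM, and for it as for Cdkn1a both wild types lay below both other libraries.

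Eosinophil granule genes were the other group in which the transgenic library stood alone. Of 22 listed genes of eosinophils, basophils and mast cells, 16 were above 0 in either steady-state library, and 12 of these were higher in the transgenic one, at a median of 0.51. Only 11 reached 1 FPKM, 5 of them through the transgenic library alone and 2 through the wild type alone, and their median of 1.10 is partly fixed by that choice. Prg2, the gene of eosinophil major basic protein, stood at 3.46 FPKM in wild type, 35.1 in the transgenic library, and 4.09 and 1.46 after transplantation. Its ratio was 10.1 (6 to 18).

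Ear1, an eosinophil ribonuclease gene, was at 0 in 3 libraries and at 5.45 FPKM, or 20 reads, in the transgenic one, at least 6.67-fold higher. Epx, the eosinophil peroxidase gene, was listed at 0 in the wild type and had 1.55 FPKM in the transgenic library, at least 9.35-fold higher, with 0.571 and 0.0463 after transplantation. Hdc, which makes histamine, stood at 0.314 and 2.22 FPKM (ratio 7.06, 2.75 to 23), but at 1.72 and 1.22 after transplantation, so that here the wild type was the low one. Ear6 was at 0 and 4.68 FPKM, but the Ear genes are close copies of each other and a read can be shared between them. Basophil protease genes went the other way on few reads, and here it was the transgenic library that had none. Mcpt8 stood at 1.30 FPKM in wild type, 0 in the transgenic library, and 3.27 and 4.2 after transplantation. Prss34 stood at 1.22 (about 9 reads), 0, 3.07 and 3.88 FPKM, and was at least 2.98-fold lower.

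The summed level of the whole list was 31.2 FPKM in the wild type against 92.3 in the transgenic library, with 40.9 and 34.6 after transplantation. In these bulk libraries more cells of a type and more RNA per cell cannot be told apart. Neither steady-state library had a read of Fcer1a, the high-affinity IgE receptor of basophils and mast cells.

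Neutrophil genes were higher too, with another pattern over the 4 libraries. Of 37 listed genes of late granules and mature neutrophils 34 were above 0 in either steady-state library, and all 34 were higher in the transgenic one, at a median of 0.92. Of these, 29 reached 1 FPKM, 9 through the transgenic library alone, at a median of 0.98. The transplanted wild type sided with the transgenic library and the labelled knockout with wild type for 19 of the 29. The list summed to 847 FPKM in wild type, 1998 in the transgenic library, 1834 in transplanted wild type and 741 in the labelled knockout. S100a9, whose protein pairs with that of S100a8 in neutrophil cytosol, stood at 273, 670, 625 and 227 FPKM in the same order. Ltf, the lactoferrin gene, stood at 14.3, 33.2, 28.4 and 9.17 FPKM, and Ngp, a neutrophil granule protein gene, at 66.1, 140, 129 and 46.1. In each of these genes the transgenic and transplanted wild-type libraries lay above the other pair with no overlap.

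The 13 measured primary granule genes of earlier myeloid cells had a median of 0.52, with 10 higher. Of the 13, 1 passed through the transgenic library alone, and the 12 that passed in both had a median of 0.51. The list summed to 334 FPKM in wild type, 574 in the transgenic library, 677 in transplanted wild type and 556 in the labelled knockout. Elane, neutrophil elastase, stood at 13.4 FPKM in wild type, 24.5 in the transgenic library, 41.6 in transplanted wild type and 13.6 in the labelled knockout. Mpo stood at 13.8, 19.9, 38.8 and 11.4 FPKM. Both peaked in transplanted wild type. Il9r, an interleukin-9 receptor gene on none of these lists, peaked in the transgenic library, at 2.65, 8.89, 5.29 and 3.44 FPKM (ratio 3.35, 2.61 to 4.33). Of 32 monocyte and macrophage genes above 0 in either steady-state library 21 were higher, at a median of 0.20. For the 21 at 1 FPKM or more, 4 of which passed through the transgenic library alone, the median was 0.62. Fcgr4, an activating antibody receptor, stood at 0.524, 2.38, 1.36 and 0.331 FPKM, and the list summed to 137, 225, 218 and 134. Il1b, the interleukin-1 beta gene that neutrophils and monocytes read at high levels, stood at 0.853, 6.51, 2.65 and 0.617 FPKM, again highest in the transgenic library and next in transplanted wild type.

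Without the genes of the marker lists of other blood and stromal cells, 81 genes were at least 2-fold higher and 44 lower.

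**Figure D3:**
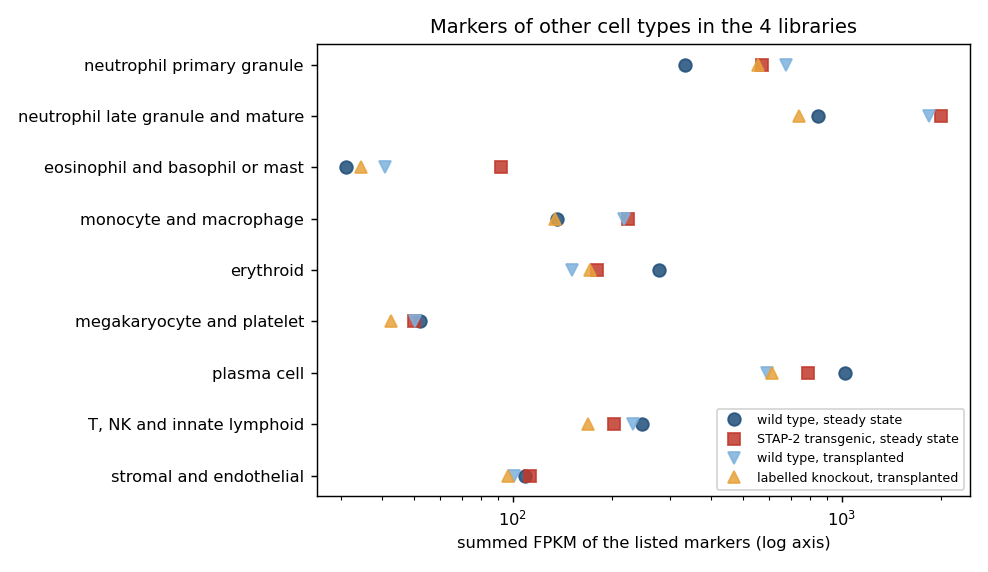
Summed FPKM, on a log axis, of the listed markers of 9 other cell types in the 4 libraries. Late neutrophil markers are high in the transgenic and transplanted wild-type libraries, the joint eosinophil, basophil and mast cell sum in the transgenic one, where Prg2 made up 35.1 of its 92.3 FPKM, and erythroid markers in steady-state wild type.

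Red cell genes were a case of a high wild type. Of 10 measured erythroid genes 4 were lower by 2-fold or more, although 7 of 10 lower gave a median of only -0.17. Hba-a1, an alpha globin gene, stood at 32.6 FPKM in the wild type, and at 3.89 in the transgenic library, 4.38 in transplanted wild type and 8.17 in the labelled knockout. Beta-s, a beta globin gene, stood at 54.4, 11.8, 10.8 and 12.3 FPKM. Slc4a1, the anion exchanger of the red cell membrane, stood at 1.45, 0.190, 0.208 and 0.106 FPKM. In all 3 the wild type stood more than 2-fold above each of the other libraries, though globin reads can be split between near-identical copies. The 25 listed erythroid genes summed to 277 FPKM in wild type, 180 in the transgenic library, and 151 and 172 after transplantation.

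Platelet genes were few. Ppbp, a platelet chemokine, stood at 4.38 FPKM (28 reads) in wild type, at 0.158 (1 read) in the transgenic library and at 0 in both transplant libraries, 27.8-fold lower with an interval of 4.60 to 1139. Serpine2, a protease inhibitor on the same list, went the other way at 0.812, 3.43, 0.419 and 0 FPKM.

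Some stromal genes separated the steady-state libraries from the transplanted ones, but the list as a whole did so little. It summed to 109 FPKM in wild type, 113 in the transgenic library, and 101 and 96.7 after transplantation. Cxcl12, the chemokine that holds B progenitors in the marrow, stood at 4.26 FPKM in the wild type against 7.65 in the transgenic library, and at 0.348 and 0.155 after transplantation. Of 26 listed stromal and endothelial genes 3 were at 0 in each steady-state library and 9 in each transplant library. The list lay near the floor, at medians of 0.403, 0.465, 0.0761 and 0.160 FPKM over the 4 libraries. The 19 measured plasma cell genes had a median of -0.18. The 31 T, NK and innate lymphoid genes above 0 had one of -0.06, against -0.27 for the 10 at 1 FPKM or more. The part of other cells in the differences described here was not tested.

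Interferon-stimulated genes were the largest group in which the wild type was the odd library. These genes are switched on when type I or II interferon binds its receptor and fall into sensors and factors that pass the signal on and effectors that block viruses.

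Effectors differed most. Of 49 measured antiviral effectors 44 were higher in the transgenic library, 14 of them at least 2-fold, at a median of 0.76. Of the 49, 5 reached 1 FPKM through the transgenic library alone. Of the 51 above 0 in either steady-state library 46 were higher, also at 0.76. For 41 of the 49 both transplant libraries lay nearer to the transgenic one, and for 11 the wild type was at least 2-fold away from all 3 others. Rtp4, an interferon-induced chaperone of receptor transport, stood at 4.50 FPKM in the wild type, and at 16.0 in the transgenic library, 18.2 in transplanted wild type and 19 in the labelled knockout. Its ratio was 3.56 (2.54 to 5.06). Usp18, the protease that removes ISG15 from proteins, stood at 4.54, 10.7, 12.5 and 14.2 FPKM, and Mx1, a dynamin-like antiviral GTPase, at 5.26, 10.3, 17.4 and 16.9. In each the wild type was the low library and the 3 others lay within 2-fold of each other. Ifi44, at 0.253, 4.13, 1.05 and 2.22 FPKM, was instead highest in the transgenic library.

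All 14 measured interferon-inducible GTPases, which attack the membranes around intracellular pathogens, were higher, at a median of 0.65, and 3 passed 2-fold. Of the 17 above 0 in either library 16 were higher, at 0.55. Igtp stood at 11.4 FPKM in wild type, 26.2 in the transgenic library, and 26.9 and 22.4 after transplantation (ratio 2.30, 1.89 to 2.80). Gbp6 stood at 1.36, 4.32, 5.24 and 5.55 FPKM. Both transplant libraries were nearer to the transgenic one for 13 of the 14.

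Sensors and factors differed less. Of 24 measured, 16 were higher, at a median of 0.14, and 1 passed 2-fold. After rescaling to the same sum the median was 0.03, too small to be read as a direction. That gene was Tlr7, the endosomal receptor for single-stranded RNA, at 2.62 FPKM in the wild type, and at 7.35, 7.80 and 5.17 in the transgenic, transplanted wild-type and labelled knockout libraries. Irf7, the factor that amplifies interferon output, stood at 10.1, 19.3, 22.8 and 26.6 FPKM (ratio 1.92, 1.57 to 2.35). Irf9, part of the factor that type I interferon activates, stood at 46.8, 73.4, 64.8 and 69.1 FPKM. The wild type was the lowest library in each of the 3.

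Promoter sequence was compared because these genes were higher together. The core of the interferon-stimulated response element was searched as GAAANNGAA on both strands, from 250 bases before to 50 after each start in RefSeq, and 8.61% of the 8509 genes with a window held it. Among genes with a window it was found in 8 of 9 GTPases, 17 of 37 effectors and 6 of 19 sensors and factors. The 31 interferon genes with the core had a median difference of 0.74, and the 34 without it 0.29. These groups also differ in makeup, with most GTPases in the first and most sensors and factors in the second. A match is a string of letters and not a shown binding site. The windows below were picked among genes that hold the core. Of interferon genes with a window that were at least 2-fold higher, 6 held it and 3 did not. The windows are those of an oligoadenylate synthetase, the ubiquitin-like ISG15, an IFIT family gene and a GTPase. They are on GRCm38.p6, 5′ to 3′ on the gene's strand, with the core or its reverse complement in capitals.
Oas1a (chr5:120907476-120907775, minus strand): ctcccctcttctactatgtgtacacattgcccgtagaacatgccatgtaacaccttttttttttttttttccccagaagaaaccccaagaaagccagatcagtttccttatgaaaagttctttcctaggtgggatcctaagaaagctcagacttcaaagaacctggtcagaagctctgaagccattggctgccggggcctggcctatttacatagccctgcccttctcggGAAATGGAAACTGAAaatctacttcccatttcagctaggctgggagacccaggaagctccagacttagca
Isg15 (chr4:156200769-156201068, minus strand): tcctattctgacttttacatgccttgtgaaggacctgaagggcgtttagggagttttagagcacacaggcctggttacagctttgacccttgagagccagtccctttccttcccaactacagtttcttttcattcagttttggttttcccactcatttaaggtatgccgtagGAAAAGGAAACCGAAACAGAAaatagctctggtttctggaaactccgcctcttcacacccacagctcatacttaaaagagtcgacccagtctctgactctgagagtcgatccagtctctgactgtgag
Ifit3 (chr19:34583279-34583578, plus strand): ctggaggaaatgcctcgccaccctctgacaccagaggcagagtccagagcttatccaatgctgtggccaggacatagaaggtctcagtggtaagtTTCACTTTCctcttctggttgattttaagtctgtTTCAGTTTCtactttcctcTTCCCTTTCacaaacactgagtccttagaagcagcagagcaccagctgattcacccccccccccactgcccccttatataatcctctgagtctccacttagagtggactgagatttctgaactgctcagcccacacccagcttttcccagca
Igtp (chr11:58199306-58199605, plus strand): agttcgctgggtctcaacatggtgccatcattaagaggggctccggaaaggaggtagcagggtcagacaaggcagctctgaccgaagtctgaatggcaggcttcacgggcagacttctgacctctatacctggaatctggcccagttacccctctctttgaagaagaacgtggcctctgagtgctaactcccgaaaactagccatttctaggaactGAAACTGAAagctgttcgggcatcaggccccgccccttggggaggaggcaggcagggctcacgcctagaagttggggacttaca
Isg15, with 3 overlapping matches, stood at 5.23 FPKM in the wild type, and at 10.8, 13.2 and 19.1 in the transgenic, transplanted wild-type and labelled knockout libraries. Ifit3, with 3 separate matches, stood at 1.52, 4.15, 6.70 and 4.76 FPKM. Oas1a, with 2 that overlap, stood at 4.63, 16.8, 15.7 and 16.8, though oligoadenylate synthetase genes are close copies. Igtp had 1 match.

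Antigen presentation genes were higher, mostly by less than 2-fold, and split by class. Of 22 measured class I genes 21 were higher in the transgenic library, at a median of 0.38, and for 20 both transplant libraries lay nearer to the transgenic one. B2m, the shared light chain of class I molecules, stood at 1945 FPKM in wild type and 2744, 2589.8 and 2586 in the transgenic, transplanted wild-type and labelled knockout libraries. Psmb9, an immunoproteasome subunit, stood at 76.4, 123, 125 and 130 FPKM, and the peptide transporter gene Tap1 at 71.8, 103, 109 and 120. H2-Q6 and H2-Q7, the class I genes past 2-fold, are near-identical copies and their values are uncertain.

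Of 16 measured class II genes 15 were higher, at a median of 0.50, but for 12 of these 16 the labelled knockout sided with wild type. H2-Aa, a class II alpha chain, stood at 590, 834, 816 and 514 FPKM in wild type, transgenic, transplanted wild type and labelled knockout, and H2-Ab1, its beta chain, at 409, 582, 605 and 391. Cd74, the invariant chain that guards the class II groove, stood at 1411, 2107, 2586 and 1569 FPKM. Summed over the list, class II stood at 3295 FPKM in wild type, 4671 in the transgenic library, 5327 in transplanted wild type and 3335 in the labelled knockout.

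Within the B lineage the surrogate light chain stood out, and again the wild type was low. Vpreb2, a second VpreB gene, was listed at 0 in the wild type and had 3.74 FPKM in the transgenic library, at least 4.99-fold higher, with 7.59 and 8.86 after transplantation. Vpreb1 and Igll1, which encodes lambda 5, lie 7.73 kb apart on chromosome 16. Vpreb1 was 2.09 higher on the log2(FPKM + 1) scale and Igll1 1.39 higher. Vpreb3, which acts inside the cell and not in the surrogate light chain at the surface, was level at 1467 and 1441 FPKM (ratio 0.983, 0.942 to 1.02). Vpreb1 and Vpreb2 are close copies, so the split of reads between them is uncertain.

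A few other genes of earlier B progenitors had the same low wild type. Dntt, which adds bases at heavy chain joints, stood at 2.12 FPKM in the wild type, and at 7.53, 12.1 and 15.1 in the transgenic, transplanted wild-type and labelled knockout libraries. Myl10, a myosin light chain gene on the pro-B list, stood at 0.684 FPKM, or 3 reads, and at 4.14, 3.23 and 3.46 (ratio 6.05, 2.10 to 36.9). Of the 17 measured pro-B and early progenitor genes, however, only 8 were higher, and their median was -0.12. Lower members were Mycn, at -0.90 on the log2(FPKM + 1) scale, and Rag1, at 638, 429, 453 and 286 FPKM over the 4 libraries, so that for Rag1 the wild type was the high one.

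Small, resting pre-B genes were lower by modest amounts. Of 27 measured genes of this stage 24 were lower in the transgenic library, at a median of -0.21, and none passed 2-fold. Among the exceptions, the widest was Ccnd2, a cyclin that pre-B cells use on entering division, at 4.95, 9.29, 25.5 and 21.4 FPKM, with the wild type lowest. Of 25 transcription factors of the B lineage 24 were lower, at a median of -0.20. The exception was Bcl11a, higher by 0.17. This list and the small pre-B list share members, so they are not separate results. Klf2, Sox4 and Irf4 were the lowest of both. Irf4, a factor that drives light chain rearrangement, stood at 259, 173, 181 and 220 FPKM in wild type, transgenic, transplanted wild type and labelled knockout, and Ebf1, a founding B lineage factor, at 194, 140, 154 and 169. Pax5, the guardian of B identity, differed less, at 334, 287, 328 and 317. The 23 B identity genes as a list were level, at -0.04 with 8 higher. Genes of immature and mature B cells were higher for 18 of 22, at 0.19, and at 0.07 after rescaling to the same sum. Cd86, a costimulatory ligand, stood at 3.28, 6.49, 6.97 and 4.59 FPKM.

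Cell division genes were higher together, each by less than 2-fold, and for them the transplanted wild type sided with steady-state wild type. Of 45 DNA replication genes 43 were higher in the transgenic library, at a median of 0.34, and of 46 mitosis genes 44, at 0.35. After rescaling to the same sum these medians were 0.22 and 0.24. For 44 of the 46 mitosis genes and 36 of the 45 replication genes the transplanted wild type was nearer to wild type and the labelled knockout nearer to the transgenic library. Cdc6, which loads the replicative helicase, stood at 6.56 FPKM in wild type, 11.1 in the transgenic library, 7.33 in transplanted wild type and 13.1 in the labelled knockout. Ube2c, which marks mitotic cyclins for destruction, stood at 58.5, 85, 48.1 and 100 FPKM. In both genes the 2 wild types lay below the 2 other libraries. The list of large cycling pre-B cells shares members with these division lists and is no separate result. Of its 15 genes 14 were higher, at 0.34.

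Several Kruppel-like and immediate early genes had the mirror image of this order. Of 11 measured Kruppel-like factors, among which Klf2 holds resting lymphocytes out of cycle, none was higher and the median was -0.31. Over the 14 above 0 in either library 3 were higher, at a median of -0.20. Klf4 stood at 48.1 FPKM in wild type, 19.1 in the transgenic library, 37.8 in transplanted wild type and 14 in the labelled knockout. Klf2 stood at 473, 239, 436 and 188 FPKM, a ratio of 0.506 (0.484 to 0.530). For 7 of the 11 the transplanted wild type sided with wild type and the labelled knockout with the transgenic library.

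Of 28 immediate early genes, some of them also Kruppel-like factors, 19 were lower, at a median of -0.23. The transplanted wild type sided with wild type and the labelled knockout with the transgenic library for 13 of the 28. Fos stood at 307, 192, 334 and 102 FPKM, and Jun at 309, 182, 371 and 150. Cd69, an early activation antigen that keeps lymphocytes in tissue, followed the same order at 175, 88.8, 184 and 61.3. Both wild types were above both other libraries in each of these 3 genes. Egr1 did not, at 20.2, 17.4, 67.7 and 25, nor did Nr4a1, which was 0.56 higher in the transgenic library.

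**Figure D4:**
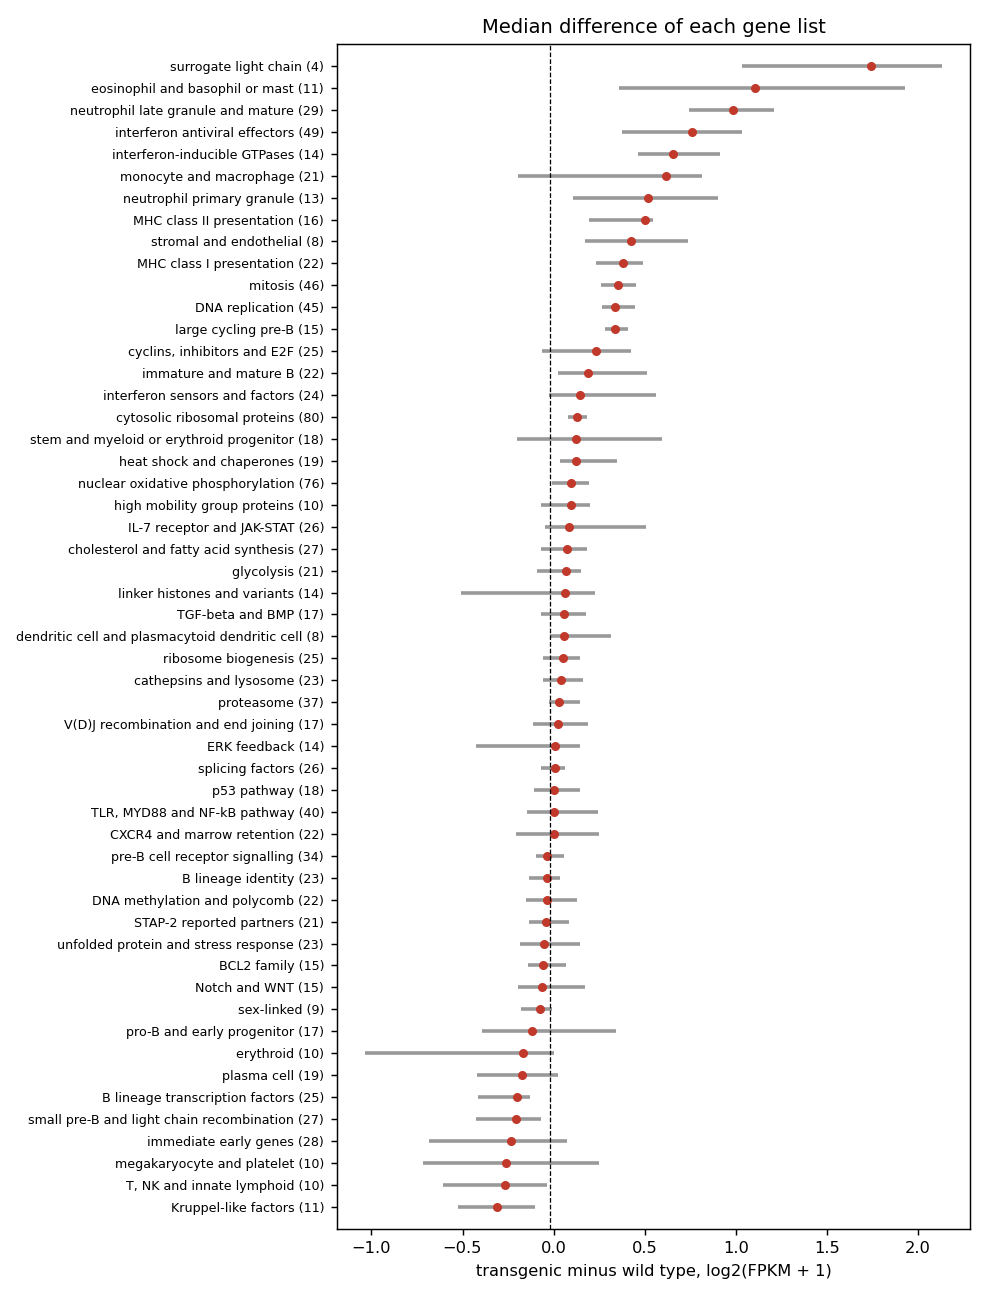
Median difference of log2(FPKM + 1), transgenic minus wild type, of the measured members of each gene list, with the number measured in brackets and a bar from the lower to the upper quartile. The dashed line is the median of all genes, -0.02. Only members at 1 FPKM or more in either library enter. The surrogate light chain, late neutrophil and eosinophil lists lie farthest to the right, with the antiviral effectors at 0.76 and the interferon sensors and factors at 0.14, and the Kruppel-like factors at -0.31 farthest to the left.

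Pathways that STAP-2 is reported to act in differed little as lists. The 34 pre-B cell receptor signalling genes had a median of -0.04 with 12 higher, the 21 reported STAP-2 partners -0.04 with 9 higher, and the 40 genes of the Toll-like receptor, MYD88 and NF-kB pathway 0.00 with 21 higher. The 26 genes of the IL-7 receptor and JAK-STAT list had 0.08, with 17 higher, and -0.02 after rescaling to the same sum. Of these lists only the Toll-like receptor list held genes past 2-fold, Il1b, Tlr7 and Traf1, the last higher by 1.04. The ribosomal protein list (0.13, 78 of 80 higher) and the oxidative phosphorylation list (0.10, 55 of 76) went to 0.01 and -0.02 after rescaling to the same sum. So did the heat shock list, from 0.12 to 0.01.

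Of the 160 genes past 2-fold, 73 were in a list and 87 in none. Apart from those on chromosome 14, the latter went in both directions. Il9r, Tspan31 and Ece2 were among the higher. Several that belong to no family of copies were lower. Reln, the gene of a secreted matrix glycoprotein, stood at 55.1 FPKM in wild type, 16.5 in the transgenic library, 30.1 in transplanted wild type and 17.2 in the labelled knockout, 3.33-fold lower (3.14 to 3.54). Pde4c, a cyclic AMP phosphodiesterase gene, stood at 34.1, 14.6, 32.2 and 24.4 FPKM, and Arrdc3, an arrestin-like gene, at 25.3, 11.1, 20.4 and 18. Trib1, a pseudokinase gene that promotes decay of C/EBP factors, stood at 20.04, 8.97, 23.9 and 15.9. In the last 3 genes the transgenic library was the lowest of the 4, each less than 2-fold below the next.

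Ctse, the gene of the aspartic protease cathepsin E, was the lowest of the genes chosen by the naming rule and a clear case of a high wild type. It stood at 133 FPKM in the wild type, and at 11.1, 17.3 and 11.7 in the transgenic, transplanted wild-type and labelled knockout libraries, 12-fold lower in the transgenic one (10.2 to 14.2). Rpl34-ps1, a ribosomal protein pseudogene that the rule leaves out, was lower still at 112, 4.50, 67.5 and 244 FPKM, and reads can be split between such copies. Cox6b2, a cytochrome oxidase subunit isoform, stood at 11.3, 3.81, 2.63 and 2.11 FPKM. Col25a1, a membrane collagen, stood at 3, 0.432, 0.839 and 0.546. Slpi, a protease inhibitor of granulocytes and epithelia, stood at 36.1, 16.9, 4.44 and 2.41 FPKM, so that both steady-state libraries were above both transplanted ones. S100a4, a calcium-binding protein gene, was low in the transgenic library alone, at 4.69, 1.42, 6.20 and 5.93 FPKM, but on 10 and 3 reads (3.31-fold lower, 0.854 to 18.7). Lst1, a leukocyte transcript, was listed at 0 in wild type alone, at 0, 2.65, 8.68 and 2.77 FPKM, on at most 14 reads.

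Few genes separated both wild types from both other libraries. By at least 2-fold, 5 genes (0.0469% of those measured) were higher and 6 (0.0563%) lower in the transgenic library and the labelled knockout than in either wild type. Cdk5rap1, a gene of a mitochondrial RNA-modifying enzyme, stood at 4.41 FPKM in wild type, 18.8 in the transgenic library, 5.05 in transplanted wild type and 19.5 in the labelled knockout. The wild types lay close together, and so did the other pair. Gm17821 stood at 17.5, 42.3, 17 and 42.1 FPKM, and Rps27, a ribosomal protein gene with many processed copies, at 44.0, 148, 42.4 and 124. The other 2 higher genes were Gm5176 and Hist1h3c. Hist1h3c had about 2 and 3 reads in the wild types, and 11 and 12 in the transgenic library and the labelled knockout.

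Lower in both were Mid1, a ubiquitin ligase gene that crosses into the region shared by the X and Y chromosomes, at 11.4, 1.87, 13.7 and 4.69 FPKM, and G530011O06Rik, at 19.7, 3.93, 16.1 and 3.28. They start 290 kb apart on the X chromosome, and G530011O06Rik lies within the span of Mid1 on the opposite strand. Hist1h1c, a linker histone gene of a large family, stood at 350, 65.0, 158 and 76.6 FPKM. The other lower genes were Hist1h4k, Insl3 and Gm9781. Hist1h4k had only about 2 and 3 reads in the wild types, and its ratio interval of 0 to 5.35 spans 1. Insl3, a peptide hormone gene, stood at 2.80 FPKM in wild type and 3.36 in transplanted wild type, or about 8 and 11 reads. It was at 0 in both other libraries. These 11 genes were picked out after their values were seen. Genotype cannot be told apart here from other differences between the mice or libraries.

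**Figure D5:**
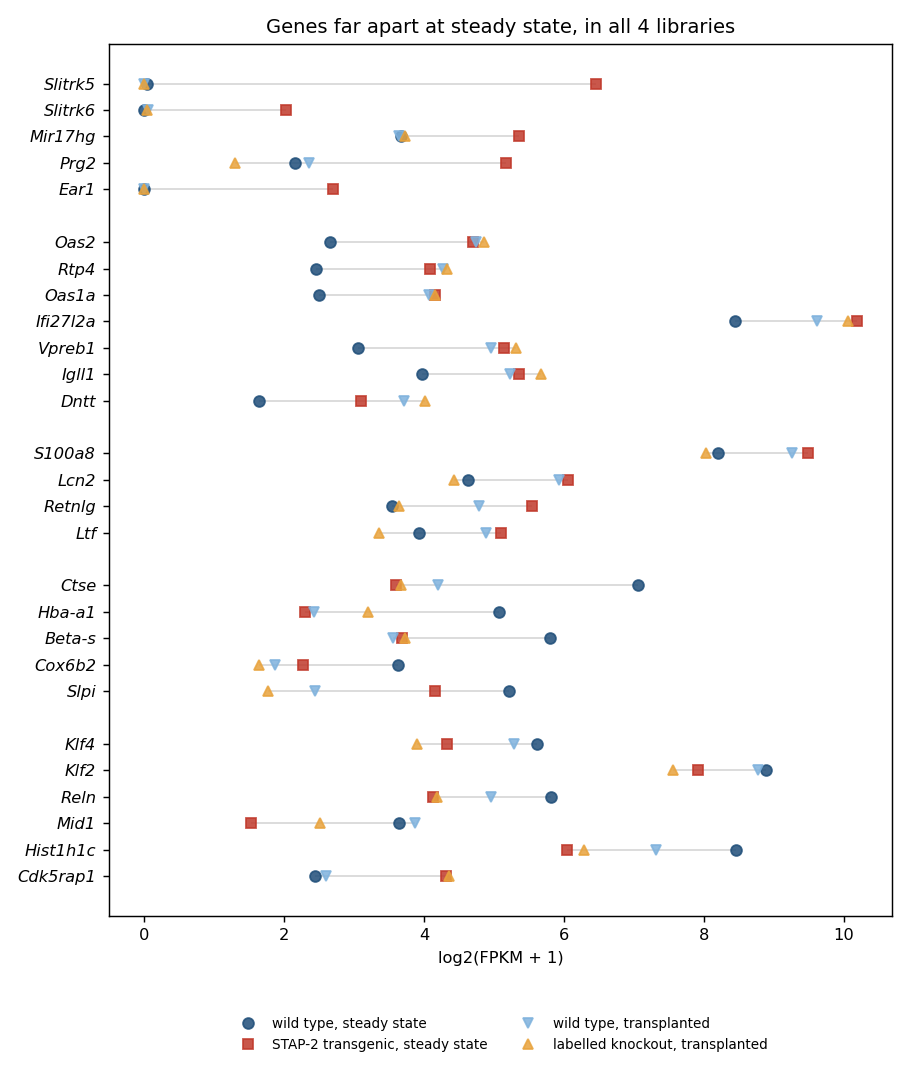
Levels of 27 genes as log2(FPKM + 1) in the 4 libraries, joined by a grey line from lowest to highest. The blocks show, from the top, genes high in the transgenic library alone, genes low in steady-state wild type, neutrophil genes high in the transgenic and transplanted wild-type libraries, genes high at steady state or in wild type alone, and genes on which the wild types and the other pair differ.

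Some of the genes past 2-fold were neighbours. Of the 160, 64 (40.0%) started within 1 Mb of another, against 21.4% of all 10659 genes. They formed 38 neighbouring pairs, of which 24 (63.2%) had the same direction, against 52.3% of all neighbouring pairs of measured genes within that distance. With 108 genes higher and 52 lower, a shared direction is not read as a result. Many of these are families of close copies, in which reads can be shared: the histone genes on chromosome 13, the S100a genes on chromosome 3, the oligoadenylate synthetase genes on chromosome 5 and the Ear genes on chromosome 14. Several of the widest differences are uncertain for the same reason. Ndufs5, at 0.144 FPKM in wild type, 36.1 in the transgenic library and near 0 in the others, Rnaset2a, at 0.00292 and 5.45, and Hist2h4, at 0.969 and 9.77, have near-identical copies or overlapping genes.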

How the data were processed

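Per the labels' protocols, pre-B cell RNA was purified with miRNeasy and sequenced from TruSeq stranded mRNA libraries. Per the submitters' processing notes the build was mm10, and the tools were Cufflinks 2.2.1, TopHat2 2.0.13, SAMtools 0.1.19 and Bowtie2 2.2.3. Their order, the annotation and any scaling between libraries are not stated in the sources used here. The authors deposited 1 table of values per gene for each library, read here as FPKM from the values and the Cufflinks layout, since the header names no unit.

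Transcript lengths came from GENCODE on GRCm38, the build of mm10: 20911 symbols had a match, a further 1915 had one by synonym, and 458 had none. Genes at 1 FPKM or more in either steady-state library with a transcript of 300 nt or more were kept, which left out 125 with no matched transcript and 59 shorter ones of 10843. Differences were taken as log2(FPKM + 1), a scale that understates the change of low genes, and at least 2-fold means a difference of 1 or more. Depth was estimated from the steps between low values. Between 70.9% and 76.8% of those values came within 0.1 of a whole read, so reads are approximate and no count test was run. Ratios are of plain FPKM, with 95% Clopper-Pearson intervals from the estimated reads. Where 1 library had no reads the bound is against 3 reads. The 2-fold counting and the ratio intervals were checked on simulated reads. With 1 library per group no test across samples was possible.

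The genes and the 53 gene lists were chosen with earlier results of these data known. Genes were named by a rule: Stap2 and Stap1, the 15 highest and 15 lowest at 5 FPKM or more in either library, up to 3 members of a list in each direction, and up to 8 genes each (for the transgenic library 7 met the rule) for which wild type or the transgenic library lay at least 2-fold and farthest from the 3 others. The extremes and the genes apart leave out immunoglobulin and T cell receptor segments, microRNA and small nucleolar RNA genes, pseudogenes marked -ps, Gm-numbered and Rik genes and bare identifiers. Others, among them Slitrk6, Mir17hg, Gpc5, the microRNA targets and further list members given as examples, were chosen after their values were seen. Python 3.11.15, NumPy, pandas, SciPy and Matplotlib were used. Other pseudocounts, filters and scalings were tried as alternatives.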

Additional observations from a re-analysis of the deposited data

How the results depend on the processing

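The counts of genes at least 2-fold higher and lower in the transgenic library were 108 and 52. They moved by more than 1.5 times with the pseudocount, to 246 and 135 at 0.1 FPKM and to 28 and 10 at 5 FPKM, and with a filter of 5 FPKM in either library, to 48 and 24. The last setting only drops genes, so its 48 and 24 could only be a part of the 108 and 52. They stayed within 1.5 times without a low filter (108 and 52), without a length filter (132 and 74), with transcripts of 1000 nt or more (74 and 35), rescaled to the same sum (92 and 69) and by the median of gene ratios (112 and 48). Settings added after seeing the data gave 93 and 39 with 10 or more reads in either library, and 81 and 44 without marker genes of other cells.

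Each of 53 list medians was taken under 8 alternatives chosen at the start. Of these values 404 stayed within the interval of the main median, and 18 moved beyond it, 14 of them by rescaling to the same sum. That interval is read off the ranked members of a list as if they were independent. It is wide for short lists, from -0.03 to 2.24 for the 4 surrogate light chain genes, so staying within it shows little. A further 2 values, from main medians of at least 0.1 in size, reversed. Pro-B and early progenitor genes went from -0.12 to 0.00029 without a low filter, and megakaryocyte genes from -0.26 to 0.16 at 5 FPKM. Among the 404 and 18 values, 22 from main medians under 0.1, read here as no direction, changed sign, 16 of them by rescaling to the same sum. At 5 FPKM the ERK feedback list went from 0.01 to -0.51. No gene past 2-fold among those named changed sign, but these settings could not have changed it. A pseudocount keeps the sign, a filter only drops genes, and both rescalings shifted genes by far less than 2-fold. Depth limits what low genes show: 3 reads of a 1500 nt transcript are 0.319 FPKM in the wild type and 0.32 in the other.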
